A study of Mus musculus with 16 samples.

Results

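Wdfy4 and its relatives with a BEACH domain were followed across mouse dendritic cells in which Wdfy4 itself had been targeted. The 9 genes were Wdfy4, Wdfy3, Lyst, Lrba, Nbea, Nbeal1, Nbeal2, Nsmaf and Wdr81, and a probe set was included when the platform annotation gave it exactly 1 of these symbols. That rule found 12 of the 35556 probe sets on the array, and the 9 genes stood among 19938 genes that were tested together. Wdfy4, Wdfy3 and Nbeal1 had 2 probe sets each and the other 6 genes 1 each.

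The cells were type 1 conventional dendritic cells (cDC1), sorted from inguinal lymph nodes of C57BL/6 mice 6 days after a regressor tumour had been placed in the flank. The 4 groups were WDFY4 KO cells of the draining node, WDFY4 Het cells of the draining node, WDFY4 KO cells of the non-draining node and WDFY4 Het cells of the non-draining node, with 4 Affymetrix arrays each, numbered 1 to 4. All mice of the 4 groups had received a tumour, and the control genotype was heterozygous, so neither wild-type cells nor nodes of tumour-free mice are part of the comparison. All nodes had been treated with collagenase B and DNase I before sorting. The labels do not give which part of Wdfy4 the targeted allele lacks, and they do not tie the arrays of a group to different animals. Nor do they say whether draining and non-draining nodes came from the same mice. P-values therefore rest on the scatter among arrays, some of which may be technical.

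BEACH domain proteins, named after the beige mouse and Chediak-Higashi syndrome, are very large proteins in which the BEACH domain sits beside WD repeats, and several act as scaffolds in membrane traffic, lysosome biology and autophagy. WDFY4 is needed in cDC1 for the cross-presentation of cell-associated antigen, the route by which these cells present tumour material to CD8 T cells. Its closest relative WDFY3, also called ALFY, helps to deliver protein aggregates to autophagosomes.

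The array values are intensities on a linear scale after RMA, and the text gives them as such or as log2(intensity + 1). The medians of the 16 arrays lay between 38.6 and 40.8, and 11 of the 12 probe sets were above the array's own median on 16 of 16 arrays. The exception was Nbea, which was below it on all 16. Defining markers of cDC1 were present: all 12 markers examined, among them Xcr1, Clec9a and Batf3, were above the array median on 16 of 16 arrays. The measured T cell and plasmacytoid markers passed this bar on all 16 arrays too, so it does not set cDC1 apart from other cells. Other marker lists passed it in part or not at all. Intensity was 1240 to 2495 for Xcr1 and 94.4 to 279 for the T cell marker Cd3e. That gap did not hold for all markers of these lists. The T cell marker Cd3g read 155 to 889, while the cDC1 markers Zbtb46 and Itgae read 122 to 177 and 155 to 470. For the cDC1 markers, sums were also taken. Their summed intensity was 11541 to 13614 in KO and 12333 to 14331 in Het cells of the draining node, and 11705 to 15645 in KO and 10402 to 13969 in Het cells of the non-draining node.

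The sequence before the start of Wdfy4 is shown beside that of Lyst, because Wdfy4 had the fewest CpG dinucleotides of the genes that could be compared. RefSeq promoters (GRCm38.p6) were matched for 7 of the 9 genes, all but Wdfy3 and Nsmaf, and the 250 bases before the annotated start are given 5′ to 3′ on the gene's strand with each CpG in capitals. They lie at chr14:33185067-33185316 on the minus strand for Wdfy4 and at chr13:13590159-13590408 on the plus strand for Lyst.
Wdfy4: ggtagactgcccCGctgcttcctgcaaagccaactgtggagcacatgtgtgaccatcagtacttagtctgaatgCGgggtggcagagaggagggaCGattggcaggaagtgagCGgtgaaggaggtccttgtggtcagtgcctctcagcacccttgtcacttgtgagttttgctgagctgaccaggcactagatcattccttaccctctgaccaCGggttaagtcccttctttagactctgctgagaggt
Lyst: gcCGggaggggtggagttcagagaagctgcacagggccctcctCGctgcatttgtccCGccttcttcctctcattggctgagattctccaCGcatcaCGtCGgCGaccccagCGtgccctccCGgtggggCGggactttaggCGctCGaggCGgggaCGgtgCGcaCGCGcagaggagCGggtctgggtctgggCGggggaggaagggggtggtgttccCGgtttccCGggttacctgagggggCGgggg

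The Wdfy4 window held 5 CpG and was 54.4% G or C, while the Lyst window held 22 CpG and was 69.2% G or C. The other 5 windows held 13 CpG in Wdr81, 14 in Nbeal2, 19 in Lrba, 24 in Nbeal1 and 28 in Nbea, and the median of all 32851 promoters was 6. Wdfy4 was therefore close to the middle of all promoters, with 44.4% of them holding fewer CpG, and it was the other 6 genes that lay above it. Motifs were searched on both strands. The ETS core GGAAGT was found 146 bases before the Wdfy4 start and 77 bases before the Nbeal2 start, and 19.7% of all promoters of this length hold it. The RUNX core TGTGGT was found 121 bases before the Wdfy4 start and in none of the other 6, with 14.0% of all promoters holding it. The AP-1 motif TGANTCA, held by 6.75% of promoters, and the TATA box TATAAA, held by 12.4%, were in none of the 7 windows. The matches did not overlap.

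Wdfy4 was read at high intensity in all 4 groups, KO cells included. Where its probe sets lie relative to the targeted part of the gene is not known from the files used here, so signal in KO cells does not check the genotype labels. On its brighter probe set (10418848, mouse chromosome 14), the KO arrays 1 to 4 of the draining node read 2181, 2785, 2257 and 1786, against 3150, 3450, 2766 and 2463 on the Het arrays. Of the 4 KO arrays, 3 lay below every Het array, and the exception was KO array 2. Complete separation with KO below Het occurred for 0.747% of all genes in this node. The log2 difference between KO and Het cells was -0.40 ± 0.18 (SE, 95% interval -0.77 to -0.03), with an adjusted p of 1.00 in limma over all genes and an exact permutation p (two-sided) of 0.0857. In bulk samples of sorted cells, less RNA per cell and fewer cells that carry the RNA cannot be told apart.

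The non-draining node showed a smaller difference of the same sign. There the KO arrays read 2356, 3165, 1923 and 2056, against 3332, 3222, 2278 and 2386 on the Het arrays. KO array 2 was again the highest of its group, and KO arrays 1 and 2 both reached into the range of the Het arrays. The log2 difference was -0.25 ± 0.18 (95% interval -0.62 to 0.13), with an adjusted p of 1.00 in limma and an exact p of 0.229. The smallest p that 4 against 4 arrays allow in this exact test is 0.0286.

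Over both nodes, Wdfy4 differed by -0.32 ± 0.12 on the log2 scale (95% interval -0.59 to -0.06). The unadjusted p in limma was 0.0196, the adjusted p was 1.00, and the exact permutation p with genotype shuffled within nodes was 0.0314, where 0.000408 is the smallest possible. Wdfy4 therefore did not pass the test across all genes in either node or over both. The p-values over both nodes treat the nodes as independent, which the labels do not establish. The difference between KO and Het cells in the draining node minus that in the non-draining node was -0.15 ± 0.25 (95% interval -0.68 to 0.37), which is within its error.

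The second Wdfy4 probe set (10418868) was dimmer and varied more. In the draining node it read 426, 511, 465 and 293 on the KO arrays, against 421, 781, 550 and 416 on the Het arrays. On the KO arrays of the non-draining node it read 484, 723, 383 and 334, against 582, 805, 410 and 401 on the Het arrays. The ranges of KO and Het arrays overlapped in both nodes. Its log2 differences had the sign of the brighter probe set, at -0.33 ± 0.28 (draining), -0.19 ± 0.28 (non-draining) and -0.26 ± 0.20 over both, with exact permutation p-values of 0.371, 0.60 and 0.233. Across the 16 arrays, after each group's mean was taken away, the 2 probe sets varied together with a Pearson r of 0.87.

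**Figure D1:**
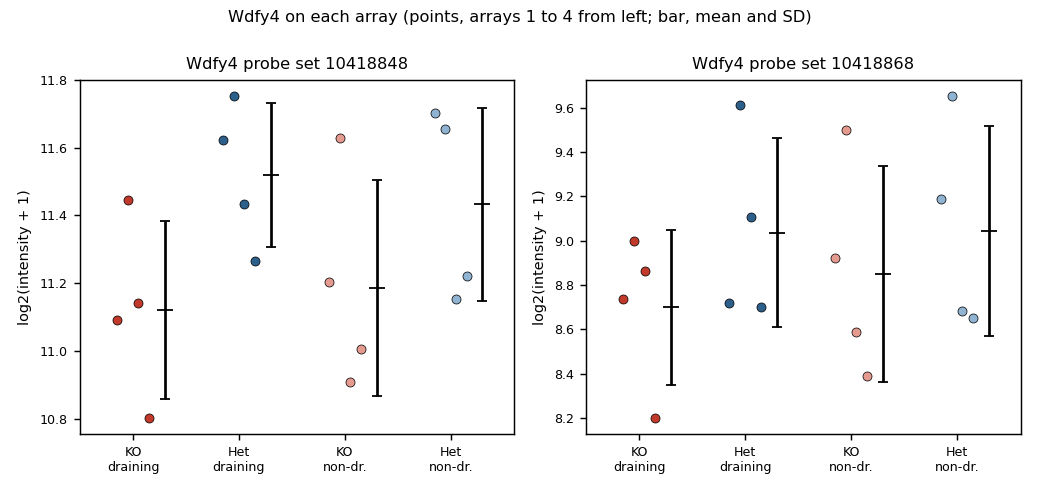
Wdfy4 on each array as log2(intensity + 1), with the brighter probe set on the left and the dimmer on the right. Points are arrays 1 to 4 of a group from left to right, and the bar beside them is the mean with its SD. KO points sit lower on average than Het points in each node, and the ranges overlap in both panels.

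The order of the groups for the brighter probe set, by mean log2 value from low to high, was KO draining at 11.12 ± 0.26 (SD, n = 4 each), KO non-draining at 11.19 ± 0.32, Het non-draining at 11.43 ± 0.29 and Het draining at 11.52 ± 0.21. No neighbours in that order differed beyond their spread. The draining node differed from the non-draining node by -0.07 ± 0.18 in KO cells and by 0.09 ± 0.18 in Het cells, and by 0.01 ± 0.12 over both genotypes (95% interval -0.25 to 0.27). Wdfy4 thus gave no detectable difference between nodes.

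Arrays numbered 1 and 2 read higher in Wdfy4 on average than arrays numbered 3 and 4, whatever the genotype or node. Single arrays of the sets overlapped in KO cells of the draining node, where array 1 read 2181 and array 3 read 2257. They did not overlap in the other groups. Over all groups, arrays 1 and 2 averaged 11.51 and arrays 3 and 4 averaged 11.12, a difference of 0.40 on the log2 scale that 1.25% of all genes exceeded. The labels do not say what the numbers stand for. Within these pairs of arrays, every KO array was below every Het array in the draining node, with differences of -0.42 for arrays 1 and 2 and -0.38 for arrays 3 and 4. The same held in the non-draining node, with differences of -0.26 and -0.23. Of all 19938 genes, 15 (0.0752%) had KO arrays below Het arrays in all 4 of these sets, and the split into sets was chosen with earlier results known. That share is about what 4 independent sets of 2 KO and 2 Het arrays give by chance. The second probe set kept this separation in 1 of the 4 sets only, arrays 3 and 4 of the non-draining node.

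The genes that varied most like Wdfy4 from array to array were found among 9968 other genes above the median level, by the Pearson correlation of deviations from the group means over the 16 arrays. They were Kit, the receptor for stem cell factor, at 0.975, Scarb1, a scavenger receptor that binds HDL, at 0.968, Anpep, the aminopeptidase CD13, at 0.964, Arsb, a lysosomal sulfatase, at 0.959, and Themis2 at 0.955. All 5 also read higher on arrays 1 and 2 than on arrays 3 and 4, by 0.43 to 0.67 on the log2 scale. Without the removal of group means, the closest genes were Pex3, Itpripl2, Limk1, Gpd2 and Txlna, with r between 0.774 and 0.797. These values describe likeness over arrays that share the split by number, and each was picked as the highest of many.

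Set against the mean of its 5 closest genes on the same array, Wdfy4 stood 0.84 to 0.97 log2 units above them in KO and 1.37 to 1.53 in Het cells of the draining node. For the non-draining node, it stood 0.86 to 1.04 above them in KO and 1.23 to 1.53 in Het cells. The ranges did not overlap in either node, while those of the Wdfy4 level itself did in both. How many other genes would separate in this way from their own closest genes was not counted. The 5 genes all had higher means in KO than in Het cells of each node, so part of the gap was theirs. The means ran from 10.15 against 10.12 for Kit (draining) to 11.40 against 11.13 for Anpep (non-draining). The 5 genes had been chosen on these same arrays, so these ranges are a description without a test.

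For a test, each gene above the median level was set against the median of 5 other genes. These 5 followed it most closely in the other node. The procedure was added after the data had been seen. The labels do not establish that the nodes are independent, and the split by array number is common to both. In KO cells, deviations of the 2 nodes correlated at 0.52 for array 2 and 0.58 for array 4. The choice of genes may therefore not be independent of the arrays tested. In the draining node Wdfy4 then stood at 2.45, 2.92, 2.41 and 2.67 on KO arrays and 3.35, 3.22, 3.37 and 3.54 on Het arrays, with no overlap. In the non-draining node it stood at 1.57, 2.17, 1.46 and 1.82 on KO arrays and 2.49, 1.93, 1.98 and 2.01 on Het arrays, and KO array 2 lay above 3 of the 4 Het arrays. The log2 differences were -0.76 ± 0.18 (draining), -0.35 ± 0.18 (non-draining) and -0.55 ± 0.13 over both. The level of Wdfy4 itself differed by -0.40, -0.25 and -0.32. The rest was the difference of the genes it was set against, which were higher in KO cells. Adjusted over the 9969 genes treated in this way, limma gave 0.441, 1.00 and 0.224, so Wdfy4 did not pass. It ranked 6 by p in the draining node and 9 over both nodes. The genes that passed numbered 0 (0%) for the draining node, 0 (0%) for the non-draining node and 2 (0.0201%) over both. In both nodes at once, KO arrays lay below all Het arrays for 4 genes (0.0401%) and above them for 3 (0.0301%), and Wdfy4 was not among these. In the draining node alone, Nsmaf too had KO below all Het arrays, at -1.76 to -1.21 against -1.14 to -0.89. Its difference was -0.39 ± 0.16 with an adjusted p of 0.971 in limma, while the level of Nsmaf itself differed by 0.09. The share of all genes separated in the draining node alone was not counted.

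A second yardstick, the mean of the 12 cDC1 markers, was also added after the data had been seen. Relative to it, Wdfy4 stood at 1.47 to 2.04 in KO and 1.86 to 2.18 in Het cells of the draining node, and at 1.49 to 1.88 in KO and 1.97 to 2.31 in Het cells of the non-draining node. The groups overlapped in the draining node only. The differences were -0.39 and -0.46 in the draining and non-draining nodes, with exact permutation p-values of 0.0857 and 0.0286, and -0.43 over both nodes with an exact p of 0.00286. The yardstick was itself not level between genotypes. In the non-draining node 11 of the 12 markers were higher in KO than in Het cells, where 51.9% of all genes were, with a median log2 difference of 0.21, and 3 of them had an unadjusted p under 0.05 in limma, against 1.3% of all genes. The level of Wdfy4 differed by -0.25 there, and the rest of the -0.46 was the difference of the markers. In the draining node 4 of the 12 markers were higher in KO cells, with a median of -0.02 and 0 at an unadjusted p under 0.05. None of the 12 passed the adjusted test in either node. The 3 exact p-values are unadjusted and belong to a yardstick chosen with the values known. That over both nodes also treats the nodes as independent.

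**Figure D2:**
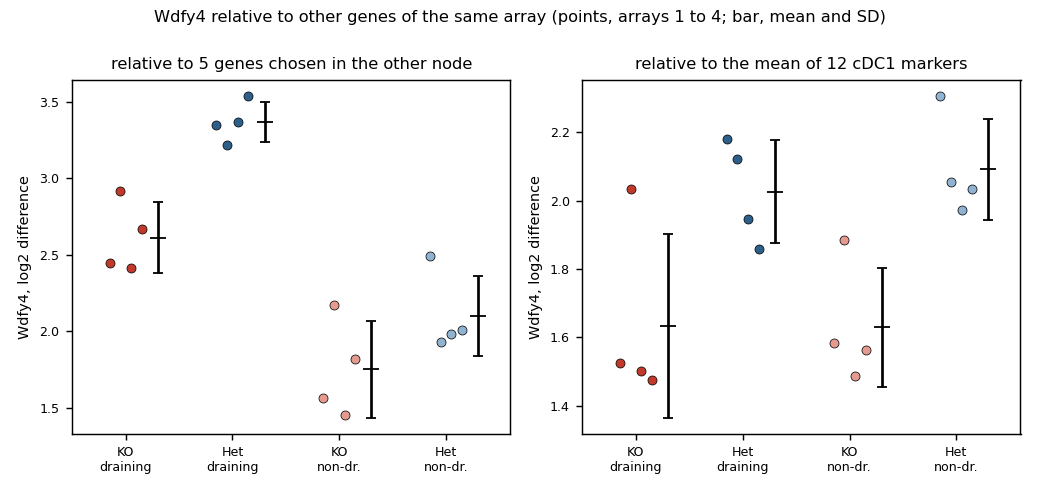
Wdfy4 relative to other genes of the same array, as a difference of log2 values; the left panel uses the median of 5 genes chosen in the other node and the right panel the mean of 12 cDC1 markers. Points are arrays 1 to 4 of a group from left to right, and the bar is the mean with its SD. KO and Het points of the draining node separate in the left panel and those of the non-draining node in the right panel; in the left panel the nodes use different genes, so their levels are not comparable.

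None of the other 8 BEACH domain genes passed the test in any of the 7 comparisons, and neither did Wdfy4. Between KO and Het cells of the draining node, 0 of the 9 genes passed an adjusted p of 0.05 in limma, as did 0 of 19938 genes (0%). At an unadjusted p under 0.05 there was 1 lower gene, Wdfy4, against 1.7% of all genes, and 0 higher genes, against 1.69%. In the non-draining node 0 of the 9 passed the adjusted test (0% of all genes), and 0 were lower and 0 higher at an unadjusted p under 0.05, against 1.18% and 1.3% of all genes. Over both nodes 0 passed (0% of all genes), and Wdfy4 was again the 1 gene lower at an unadjusted p under 0.05, against 1.75% of all genes. The median log2 difference of the 9 genes was 0.07 (draining) and 0.06 (non-draining), where the medians of all genes were 0.00 and 0.01.

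Wdfy3 was examined first among the relatives. On its brighter probe set (10531794), arrays 1 to 4 of the draining node read 301, 298, 203 and 175 in KO and 317, 208, 168 and 235 in Het cells. Those of the non-draining node read 236, 296, 214 and 213 in KO and 242, 357, 174 and 172 in Het cells. The ranges of KO and Het arrays overlapped widely, and the differences were 0.07 ± 0.24 and 0.08 ± 0.24. The 95% interval in the draining node, -0.44 to 0.58, leaves room for a difference as large as that of Wdfy4. Wdfy3 also differed by array number on average, with arrays 1 and 2 averaging 8.12 and arrays 3 and 4 averaging 7.60, a difference that 0.401% of all genes exceeded. Its second probe set (10531796) differed by 0.06 ± 0.14 and 0.12 ± 0.14 between KO and Het cells of the draining and non-draining nodes.

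Lyst, Lrba and Nbeal2 are the relatives tied to immune and blood cell granules and recycling. LYST limits the size of lysosomes and lysosome-related granules, and its loss gives the beige mouse and Chediak-Higashi syndrome. Lyst (10403604) read 649, 689, 535 and 492 in KO and 459, 615, 525 and 575 in Het cells when taken from the draining node. Cells of the non-draining node gave 488, 722, 503 and 477 for KO and 502, 601, 468 and 540 for Het. The groups overlapped in both nodes, with differences of 0.12 ± 0.15 and 0.04 ± 0.15.

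LRBA keeps the checkpoint receptor CTLA-4 from being degraded in lysosomes. Lrba (10492890) was among the steadiest of the genes, between 272 and 380 over the 16 arrays. KO arrays of the draining node read 367, 380, 336 and 315, against 320, 353, 333 and 322 on Het arrays, a difference of 0.07 ± 0.11. KO arrays of the non-draining node read 284, 367, 351 and 272, against 288, 297, 322 and 351 on Het arrays, a difference of 0.01 ± 0.11.

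NBEAL2 is needed to form the alpha granules of platelets. Nbeal2 (10597182) had the highest positive difference of the 9 genes in the draining node, where KO arrays read 210, 271, 266 and 210 and Het arrays read 179, 221, 233 and 178. The ranges overlapped, and the difference was 0.24 ± 0.14 (95% interval -0.05 to 0.53) with an adjusted p of 1.00 in limma and a p of 0.171 by exact permutation. KO arrays of the non-draining node read 248, 235, 233 and 213 and Het arrays read 251, 266, 186 and 187, a difference of 0.08 ± 0.14. Het arrays 1 and 2 were above all KO arrays there, and Het arrays 3 and 4 below them.

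Wdr81 and Nsmaf act with endosomes and with receptor signalling. WDR81 controls phosphoinositide levels on endosomes, and NSMAF, also called FAN, couples the TNF receptor to neutral sphingomyelinase. Wdr81 (10388451) ranged from 108 to 183 over the 16 arrays and differed by 0.12 ± 0.15 and 0.13 ± 0.15 between KO and Het cells of the draining and non-draining nodes. Nsmaf (10511382) ranged from 195 to 335 and differed by 0.09 ± 0.17 and 0.07 ± 0.17. In the draining node the 4 KO arrays of Nsmaf lay between 239 and 274, inside the range of 195 to 335 of the Het arrays.

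Nbeal1 and Nbea complete the family. Nbeal1 was the one relative besides Wdfy4 with a negative difference in both nodes, at -0.09 ± 0.17 and -0.19 ± 0.17 on its brighter probe set (10346722), which ranged from 133 to 241. Its second probe set (10346695) differed by 0.00 ± 0.18 and -0.10 ± 0.18. Neither difference exceeded its error by much, and the exact permutation p of the brighter probe set was 0.686 (draining) and 0.286 (non-draining). NBEA is a neuronal protein that organises receptors at synapses. Nbea (10498210) read between 12.5 and 18.1 on all 16 arrays, below the array median on each, so a difference in its level could hardly be detected here.

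**Figure D3:**
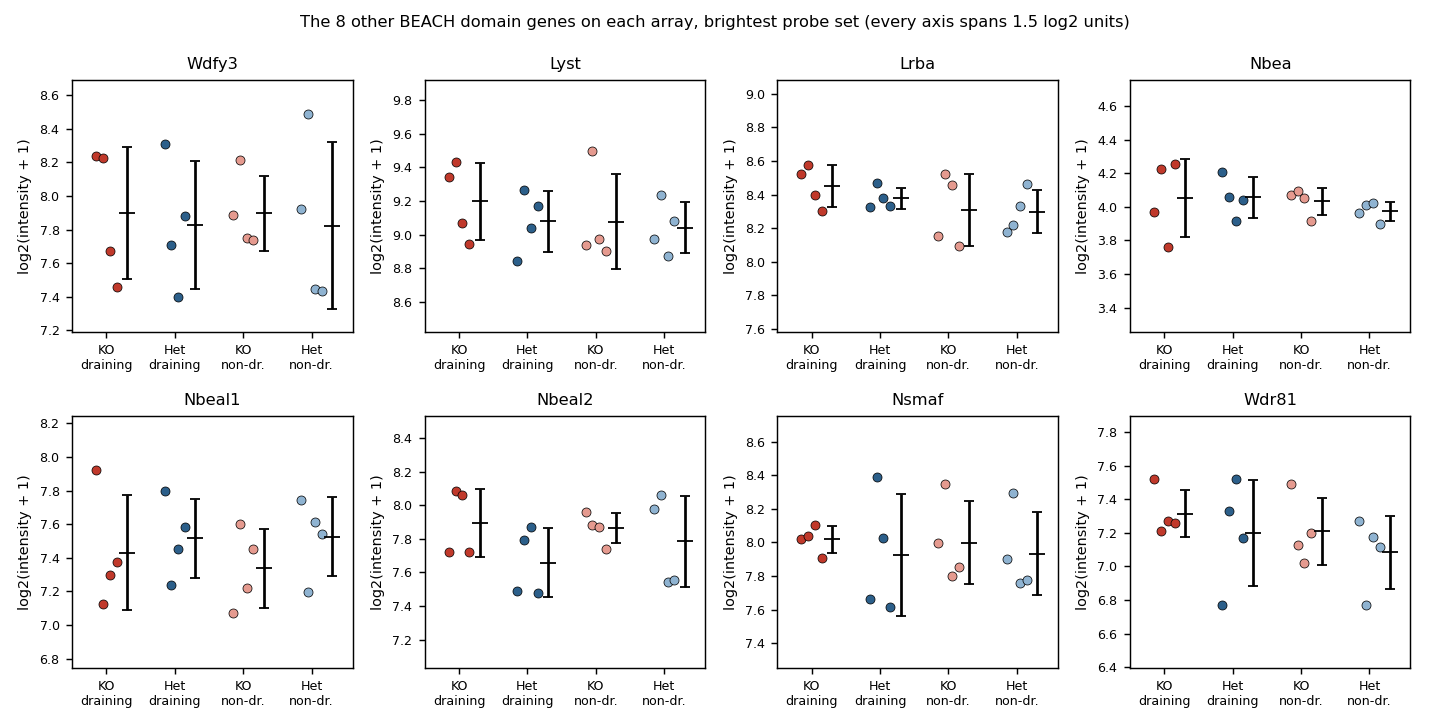
The 8 other genes on each array as log2(intensity + 1) of the brightest probe set, with every axis spanning 1.5 log2 units. Points are arrays 1 to 4 of a group from left to right, and the bar is the mean with its SD. KO and Het points overlap in each node for all 8 genes.

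Between the nodes, 0 of the 9 genes passed an adjusted p of 0.05 in limma over both genotypes, as did 0 of 19938 genes (0%). None was higher or lower in the draining node at an unadjusted p under 0.05, against 1.76% higher and 1.3% lower of all genes. By sign, 8 of the 9 genes were higher and 1 was lower in the draining node, where 52.3% of all genes were higher, and the median difference of the 9 was 0.04. The differences were small: Lrba had 0.11 ± 0.08, Wdr81 0.11 ± 0.11, Lyst 0.08 ± 0.10 and Nbeal2 -0.05 ± 0.10. For Lrba, the gene with the smallest p of the 9, the adjusted p was 0.998 in limma and the exact permutation p 0.129.

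Within one genotype the node differences of the 9 genes lay between -0.07 and 0.14 in KO cells and between -0.13 and 0.11 in Het cells. The genotype difference differed between nodes by -0.15 to 0.16 over the 9 genes. In each of these 3 comparisons 0 of the 9 passed in limma (0% of all genes) and 0 had an unadjusted p under 0.05, against 1.14% higher and 0.973% lower of all genes for nodes in KO cells, 1.93% and 1.35% for nodes in Het cells, and 0.993% and 1.33% for the difference of differences.

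**Figure D4:**
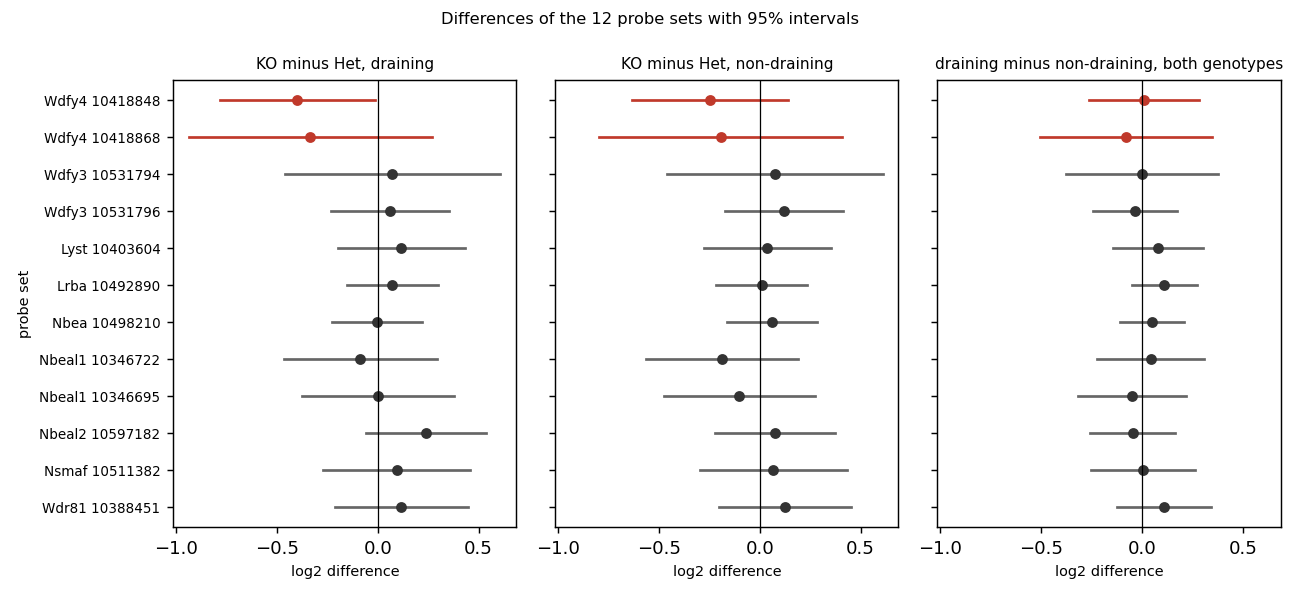
Log2 differences of the 12 probe sets with 95% intervals from the fit over all probe sets, for KO minus Het in each node and for draining minus non-draining over both genotypes. Wdfy4 is in red; its brighter probe set in the draining node is the only interval that does not reach 0.

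Variation from array to array linked Wdfy4 to some relatives and not to others. With group means taken away, Wdfy4 varied with Nsmaf at a Pearson r of 0.70, with Wdfy3 at 0.67, and with Lyst and Nbeal2 at 0.64 each over the 16 arrays. It varied with Lrba at 0.22, with Nbea at 0.15, with Nbeal1 at -0.07 and with Wdr81 at -0.11. Of the genes searched, 6.02% had a higher r with Wdfy4 than Nsmaf and 7.06% a higher one than Wdfy3. The arrays share the split by number described above, in which Nsmaf was 0.23 and Lyst 0.18 higher on arrays 1 and 2. Repeat probe sets of a gene varied together with r of 0.44 for Wdfy3 and 0.54 for Nbeal1.

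Lrrc18, a gene that lies within Wdfy4 on chromosome 14 in the GRCm38.p6 annotation, was dim and below the array median on all 16 arrays. Its probe set (10413943) in the non-draining node read 19.3, 26.5, 26.9 and 26.6 on KO arrays, against 29.2, 27.9, 33.5 and 29.9 on Het arrays. All KO arrays lay below all Het arrays there, as for 1.19% of all genes, with a difference of -0.28 ± 0.15, an adjusted p of 1.00 in limma and an exact p of 0.0286, the smallest possible. In the draining node it read 22.8, 39.3, 24.8 and 31.8 on KO arrays and 32.2, 30.3, 26.1 and 30.6 on Het arrays, with overlap and a difference of -0.03 ± 0.15.

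Proteins that work with BEACH domain proteins were examined through 15 measured genes of a list of 19, which held the known partners and cargoes such as Rab43, Sqstm1 and Ctla4. Between KO and Het cells over both nodes, 0 of the 15 passed in limma, 8 were higher and 7 lower, where 50.8% of all genes were higher, and the median difference was 0.03 against 0.00 for all genes. The 3 of smallest p were Sqstm1, the autophagy receptor p62 that binds WDFY3, at -0.24 ± 0.12, Sec16a at -0.10 ± 0.06 and Rab11b at 0.11 ± 0.07, each with an adjusted p of 1.00. At an unadjusted p under 0.05 the list had 0 genes in either direction. Between the nodes over both genotypes, 12 of the 15 were lower and 3 higher in the draining node, with a median of -0.11 against 0.01 for all genes, of which 52.3% were higher, and 0 passing.

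Genes of cross-presentation, the process that WDFY4 serves in cDC1, were measured for 19 of 20 listed. Over both nodes 8 were higher and 11 lower in KO than in Het cells, with a median of -0.01, and 0 passed in limma or had an unadjusted p under 0.05. The 3 of smallest p were Clec9a, a receptor for dead cells, at 0.14 ± 0.10, Tap1, a subunit of the peptide transporter, at -0.09 ± 0.08, and B2m, the light chain of MHC class I, at -0.07 ± 0.07, each with an adjusted p of 1.00. The signs differed between nodes: 4 were higher and 15 lower in KO cells of the draining node, with a median of -0.07, while 13 were higher and 6 lower in those of the non-draining node, with a median of 0.05. Of all genes, 49.1% (draining) and 51.9% (non-draining) were higher in KO cells, with medians of 0.00 and 0.01. The difference between nodes was not called for any of the 19 genes, 17 of which had a lower and 2 a higher genotype difference in the draining node, where 47.7% of all genes had a higher one. Between the nodes over both genotypes, Erap1, which trims peptides for MHC class I, was the 1 gene of the 19 at an unadjusted p under 0.05, against 1.76% higher and 1.3% lower of all genes. Its difference was 0.21 ± 0.08, with an adjusted p of 0.998. Erap1 read 367, 275, 274 and 307 in KO cells of the draining node, against 222, 236, 249 and 303 in those of the non-draining node, and 305, 328, 291 and 293 against 261, 239, 304 and 306 in Het cells. The nodes overlapped in both genotypes.

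The lysosome-related organelle genes, which act in the organelles that LYST shapes, were measured for 20 of 20 listed. Over both nodes 12 were higher and 8 lower in KO than in Het cells, with a median of 0.02, and 0 passed in limma. At an unadjusted p under 0.05 there was 1 lower gene of the 20, Rab38, and 1 higher gene, Vps33b, against 1.75% of all genes in each direction. Rab38, a small GTPase of lysosome-related organelles, read 64.5, 39.2, 53.4 and 71.0 on KO arrays of the draining node, against 60.1, 75.9, 76.8 and 87.8 on Het arrays. Its values in the non-draining node were 62.2, 46.0, 73.8 and 82.8 on KO arrays, against 79.9, 89.2, 89.2 and 89.4 on Het arrays. The groups overlapped in both nodes, and the differences were -0.41 ± 0.18, -0.42 ± 0.18 and, over both nodes, -0.42 ± 0.13, with adjusted p-values of 1.00. Vps33b, which takes part in granule formation, differed by 0.40 ± 0.18 over both nodes. It read 119, 175, 92.8 and 93.1 on KO arrays of the draining node, against 63.6, 128, 99.2 and 62.9 on Het arrays. In the non-draining node it read 137, 183, 104 and 93.4 against 85.6, 101, 99.9 and 103. The groups overlapped in both nodes, and the difference over both ranged from 0.093 to 0.72 over the alternatives other than leaving out an array. Stx11, a syntaxin of cytotoxic granule release, differed by -0.41 ± 0.21 over both nodes. Vps33b and Stx11 each had an adjusted p of 1.00 in limma.

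Proteins that carry a WD repeat or FYVE domain without a BEACH domain were measured for 12 of 12 listed. Over both nodes 7 were higher and 5 lower in KO than in Het cells, with a median of 0.03, and 0 passed in limma or had an unadjusted p under 0.05. Wdr41 differed by 0.18 ± 0.09, Zfyve16 by 0.19 ± 0.11 and Zfyve26 by -0.11 ± 0.07, each with an adjusted p of 1.00.

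Markers of other cells gave signal beside the cDC1 markers. The 6 measured T cell markers of 7 listed summed to 939 to 2150 in KO and 831 to 1657 in Het cells of the draining node, and to 583 to 1829 in KO and 1001 to 1961 in Het cells of the non-draining node. The 6 measured B cell markers of 7 listed summed to 328 to 412 in KO and 277 to 573 in Het cells of the draining node, and to 353 to 590 in KO and 261 to 501 in Het cells of the non-draining node. KO and Het ranges of these sums overlapped for both lists in both nodes, but the single markers leaned with genotype. All 6 T cell markers were higher in KO than in Het cells of the draining node, with a median log2 difference of 0.34, and all 6 were lower in those of the non-draining node, with a median of -0.50 and 2 at an unadjusted p under 0.05, against 1.18% of all genes lower. Of the B cell markers, 5 of 6 were higher in KO than in Het cells of the draining node, with a median of 0.12 and 1 at an unadjusted p under 0.05, against 1.69% of all genes higher. All 6 were higher in KO cells of the non-draining node, with a median of 0.51 and 2 at an unadjusted p under 0.05, against 1.3%. None of these markers passed the adjusted test in limma. The medians of both lists in the non-draining node exceeded the Wdfy4 difference there, -0.25, in size. No defining marker of either list was at 0, since RMA leaves every probe set a positive value, and Cd3e ranged from 94.4 to 279. With group means taken away, the mean of the T cell markers varied with Wdfy4 at r of -0.49 over the 16 arrays. That of the B cell markers had -0.37 and that of the 6 cDC2 markers -0.57. Plasmacytoid (-0.16), NK cell (-0.13) and neutrophil (-0.05) markers had weaker values. Macrophage and monocyte (0.08), platelet (0.28) and stroma (0.36) markers had positive ones. The gene lists above were negative too, at -0.66 for cross-presentation, -0.48 for lysosome-related organelles, -0.47 for WD and FYVE proteins and -0.21 for BEACH partners. The part of other cells in the Wdfy4 values was not tested.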

How the data were processed

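Intensity values were deposited on a linear scale, from 3.327 to 16300.089, after normalization by RMA according to the submitters' processing notes. Software version and genome build are not given here. RMA evens out the distribution of the arrays and compresses dim probe sets. Values were tested as log2(intensity + 1) with limma 3.58.1 in R 4.3.3, in 1 fit to the 16 arrays of the 4 groups (12 residual and 4.35 prior degrees of freedom). The 7 comparisons were KO minus Het in each node and over both, draining minus non-draining in each genotype and over both, and the interaction. P-values were adjusted by Benjamini-Hochberg over all genes, with a threshold of 0.05. Of 35556 probe sets, 21789 had 1 symbol, 1621 several and 12146 none, and 21698 matched the gene table (0 symbols changed). The brightest probe set stood for a gene, which gave 19938 genes, 999 with more than 1. Errors after ± are SE for differences and SD for group means. Single values were also tested by exact two-sided permutation. The number of arrays limits the precision.

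The 9 genes were given with the request, and the lists, the array sets and the other choices were made with earlier results of these data known. Named besides them were Lrrc18, the 5 genes most like Wdfy4 by each of 2 measures, and up to 3 genes of smallest p per list and comparison. Some listed genes were not analysed here. The comparison with genes chosen in the other node first used their mean; it was replaced by the median after simulated data without a difference gave too many calls. The fits were tested on simulated data. Arrays with the same number were not treated as pairs. Python 3.11.15 with matplotlib 3.10.9 made the plots. The alternatives were other pseudocounts, scalings, probe set choices, model settings, blocks, sets of arrays, and each array left out.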

Additional observations from a re-analysis of the deposited data

Results flagged for a closer look

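Among 52 groups of 4 arrays (12 probe sets of the BEACH domain genes and 1 of Lrrc18, in 4 groups), 3 held an array whose gap to the nearest other, divided by the range of the group, exceeded Dixon's critical value. Chance gives about 1 in 20 such groups, and 3 of 52 is close to that. All 3 were KO arrays of the non-draining node. Lyst read 722 on array 2, against 477 to 503 on the other 3, with a ratio of 0.873. The second Nbeal1 probe set (10346695) read 117 on array 3, against 151 to 156 on the others, with a ratio of 0.876. Lrrc18 read 19.3 on array 1, against 26.5 to 26.9 on the others, with a ratio of 0.949.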

How the results depend on the processing

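Over 16 alternatives other than leaving out an array, the 58 single-gene results gave 776 values, of which 746 kept their sign and their side of the threshold and 29 changed sign; 0 passed an adjusted p of 0.05 in limma (smallest 0.217), and the range for Wdfy4 was -0.76 to -0.37 (draining), -0.46 to -0.22 (non-draining) and -0.55 to -0.29 over both. The largest of these in size came from the comparison with genes chosen in the other node or with the cDC1 markers. Of the -0.76, the level of Wdfy4 itself made up -0.40, and the rest was the difference of the genes chosen in the other node. Relative to the markers Wdfy4 differed by -0.46 in the non-draining node, with an exact permutation p of 0.0286 against 0.229 for the level itself. The markers themselves were higher in KO cells there for 11 of 12, with a median of 0.21. With each array left out in turn, Wdfy4 lay between -0.51 and -0.29 (draining), -0.39 and -0.15 (non-draining) and -0.40 and -0.27 over both, and the count of genes called stayed at 0 in all 7 comparisons. The cause of the changes below was not tested.

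Arrays with the same number varied together in part. Of 24 pairs of groups and numbers, 18 had a correlation of deviations over 0.1 (-0.02 to 0.58 over all pairs). Of 16 arrays, 8 correlated best with their own number among the 4 numbers. Whether the number marks pairs is not given by the labels. With the replicate block, Wdfy4 had an adjusted p of 0.792 (draining), 1.00 (non-draining) and 0.397 over both, and the count of genes called over both nodes was 1. Within arrays 3 and 4 alone KO and Het cells differed in 4 genes in the draining node and 2 in the non-draining one, and in 5 genes over both, and KO cells of the 2 nodes differed in 1.

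Signs changed in these cases. Nbea in the draining node (KO minus Het) had 0.00060 with a pseudocount of 16, 0.0014 with each array centred on its median and 0.028 within arrays 3 and 4. Between nodes over both genotypes, centring gave Wdfy3 -0.0028, and the mean of a gene's probe sets gave Wdfy4 -0.034, Wdfy3 -0.016 and Nbeal1 -0.0030. Between nodes in KO cells, Wdfy4 had 0.0058 after a repeated quantile normalization and 0.014 within arrays 3 and 4. Within arrays 1 and 2, KO minus Het was 0.0068 for Nbeal1 (draining), -0.15 for Wdfy3 and -0.099 for Nbeal2 (both non-draining), and draining minus non-draining was -0.069 for Wdfy4, -0.0072 for Wdfy3 and -0.11 for Nsmaf. Within arrays 3 and 4, KO minus Het in the draining node was -0.076 for Wdfy3, -0.097 for Lyst, -0.0088 for Lrba and -0.081 for Wdr81. For the non-draining node it was -0.039 for Lyst, -0.12 for Lrba and -0.035 for Wdr81, and over both nodes -0.068 for Lyst, -0.065 for Lrba, -0.058 for Wdr81 and -0.090 for Zfyve16. Within the same arrays draining minus non-draining was -0.030 for Nbeal1, 0.11 for Nbeal2 and -0.045 for Lrrc18.

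With each array left out, 57 of 928 values changed sign. KO minus Het in the draining node ranged over -0.070 to 0.23 for Wdfy3, -0.071 to 0.094 for Nbea, -0.25 to 0.015 for Nbeal1, -0.0090 to 0.25 for Nsmaf, -0.026 to 0.22 for Wdr81 and -0.17 to 0.078 for Lrrc18. For the non-draining node the ranges were -0.054 to 0.30 for Wdfy3, -0.10 to 0.10 for Lyst, -0.062 to 0.082 for Lrba, -0.0028 to 0.17 for Nbeal2 and -0.049 to 0.19 for Nsmaf, and over both nodes -0.0061 to 0.077 for Nbea. Draining minus non-draining covered -0.18 to 0.080 in KO and -0.0071 to 0.18 in Het cells for Wdfy4 and -0.045 to 0.083 over both genotypes, where it covered -0.079 to 0.11 for Wdfy3, -0.039 to 0.094 for Nbeal1, -0.086 to 0.00011 for Nbeal2 and -0.073 to 0.065 for Nsmaf. Nbea and Lrrc18 lay below the array medians, where RMA compresses differences.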

Other observations

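Genes of migratory dendritic cells varied against Wdfy4 from array to array. The list was drawn up after the data had been seen, with 6 of 8 genes measured, and the values are Pearson correlations over the 16 arrays after group means were taken away, with no test. They were -0.67 for Ccr7, the receptor that guides dendritic cells to lymph nodes, -0.71 for Fscn1, which bundles actin in mature dendritic cells, -0.78 for Ccl22, -0.85 for Ccl17, -0.80 for Socs2 and -0.43 for Apol7c. Ccr7 ranged from 3354 to 5731 over the arrays and Socs2 from 871 to 2705. The mean of the 6 genes had -0.82. Means of other lists were negative too, among them cross-presentation at -0.66 and cDC2 markers at -0.57. Those of the cDC1, macrophage and monocyte, platelet and stroma markers were positive. The arrays share the split by number described above, and the share of all genes with as negative an r was not computed.

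The 12 cDC1 markers did not vary with Wdfy4 in 1 direction. In the same measure, Tlr3, a receptor for double-stranded RNA, had 0.91, Cadm1 0.89, Snx22 0.84 and Xcr1, a chemokine receptor that marks cDC1, 0.78. Batf3, a transcription factor that cDC1 need to develop, had -0.84, Zbtb46 -0.51 and Flt3 -0.42, and the mean of the list had 0.73.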
